A study of Rattus norvegicus with 10 samples.

Results

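The 9 genes described here encode subunits, inhibitors and feedback regulators of the transcription factor NF-kB: Nfkb1, Nfkb2, Rela, Relb, Nfkbia, Nfkbiz, Tnfaip3, Birc3 and Traf1. They were chosen by name, as the rows whose gene name in the deposited tables equals a member, and are 9 of the 14119 genes that the tables list. All 9 had reads in every library and a mean level above 50 normalised reads, the minimum used for counts below. RNA came from RPE-J cells, a line of retinal pigment epithelium from Long-Evans rats transformed with the SV40 virus, and was sequenced from polyA-selected libraries. The cells had received 100 nM of the α7 nicotinic receptor agonist PNU-282987, called PNU from here on, for 30 min, 1 h, 3 h, 8 h or 12 h. Others had received 1 µM nicotine for 1 h or 12 h as the control for receptor activation, 100 nM MLA for 1 h or 12 h as the negative control, or the vehicle DMSO for 12 h. All 10 groups share the line, the medium with serum and the removal of the cells with trypsin before lysis, and each group is 1 library. No difference between a pair of libraries therefore has a replicate check, and each pair below describes 2 libraries, not 2 conditions. The PNU 12 h library was tied to its label as the only library number and the only label left over, so each value given for it rests on that step.

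NF-kB is a family of dimers. Nfkb1 and Nfkb2 encode long precursors that are cut to DNA-binding subunits, while Rela and Relb encode subunits that also activate transcription. In resting cells inhibitors such as IκBα, the product of Nfkbia, hold the dimers in the cytoplasm until a kinase complex marks them for destruction, and the freed dimers then switch on genes for their own subunits and inhibitors, so that these genes are commonly read as a record of the pathway's activity. Retinal pigment epithelium is known to secrete chemokines through this pathway when it meets inflammatory cytokines, and in macrophages the α7 receptor is known to restrain it.

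The promoters of the members are shown first, because NF-kB is known to bind the promoters of its own subunit and inhibitor genes through a short κB motif. Of the 9 members, 7 matched by symbol a promoter in the RefSeq table of build GRCr8, and Relb and Birc3 did not. The search covered 300 bases of each promoter, from 250 before to 50 after the annotated start, on both strands for GGG, any 2 bases and TTTCC. In the 5 members with a match it is written in capitals below, 5′ to 3′ on the strand of the gene, in a window from 100 bases before to 20 after the start. The windows lie at chr2:226805443-226805562 (minus strand) for Nfkb1, chr1:255108274-255108393 (plus strand) for Nfkb2 and chr6:78597053-78597172 (minus strand) for Nfkbia. Those of the other two lie at chr11:58251621-58251740 (plus strand) for Nfkbiz and chr1:15543960-15544079 (minus strand) for Tnfaip3.
Nfkb1: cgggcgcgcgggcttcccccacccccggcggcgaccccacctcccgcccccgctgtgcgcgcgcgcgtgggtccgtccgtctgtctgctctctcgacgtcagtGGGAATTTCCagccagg
Nfkb2: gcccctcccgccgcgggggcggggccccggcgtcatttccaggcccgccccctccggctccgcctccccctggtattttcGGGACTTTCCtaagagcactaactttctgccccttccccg
Nfkbia: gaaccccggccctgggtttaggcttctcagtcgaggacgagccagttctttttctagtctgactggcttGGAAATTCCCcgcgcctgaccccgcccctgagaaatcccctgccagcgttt
Nfkbiz: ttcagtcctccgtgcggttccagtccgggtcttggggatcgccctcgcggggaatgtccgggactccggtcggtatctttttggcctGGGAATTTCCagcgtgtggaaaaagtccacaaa
Tnfaip3: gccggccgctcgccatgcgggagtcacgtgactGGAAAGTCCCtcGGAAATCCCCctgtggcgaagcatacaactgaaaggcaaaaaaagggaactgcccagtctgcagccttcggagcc

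The match of Nfkb1 lay 4 to 13 bases after the start, and that of Nfkb2 lay 20 to 11 bases before it. Nfkbiz had the same 10 letters as Nfkb1, GGGAATTTCC, 13 to 4 bases before its start. In Nfkbia they lay on the opposite strand, 31 to 22 bases before the start. Tnfaip3 had a pair of matches on the opposite strand, from 67 and from 55 bases before the start, with 2 bases between them. Rela and Traf1 had no match, which says only that these letters are not in this window. The motif was in 5 of 7 members, against 1.53% of all 33469 promoters and 1.61% of the 8309 promoters of genes with a mean level of 50 or more. It was in 3 of 42 other genes of the NF-kB pathway (Rel, Ikbkg and Traf3), in 3 of 23 NF-kB target genes (Cxcl1, Cxcl2 and Tapbp) and in 0 of 15 immediate early genes. A second form of the κB motif, GGGRNWYYCC, has A or G at R, A or T at W, C or T at Y and any base at N. With it the same count of members had a match, against 4.18% of all promoters, 11 of the 42 pathway genes and 8 of the 23 target genes. A match is a description of the letters, not of a bound site.

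The libraries held 15220638 (PNU 8 h) to 31510333 (MLA 12 h) reads in listed genes. Levels are given in normalised reads, scaled over all 10 libraries by the median of ratios, and their 95% intervals are exact Poisson intervals that cover counting error only. Levels are not scaled by transcript length, so they are compared between libraries and not between genes. The nicotine 1 h library stood apart: 294 of 11204 genes differed at least 2-fold between it and nicotine 12 h, against 17 of 11190 between the MLA libraries and 25 of 11179 between PNU 12 h and PNU 1 h. Of 14 pigment epithelium markers 7 were listed, among them Mitf, Pmel, Rlbp1 and Best1, with a summed level between 14620 in PNU 12 h and 17392 in PNU 3 h. That sum was mostly Best1, Tjp1 and Krt8, with mean levels of 5629, 5448 and 3926. Pmel, Mitf and Rlbp1 had mean levels of 506, 155 and 19.1. The defining genes Rpe65, Lrat, Otx2, Ttr and Tyr had no value in the tables used here, and neither had Chrna7, the gene of the α7 subunit. Of 12 immune markers 5 were listed, with a summed level between 843 in nicotine 1 h and 963 in PNU 30 min. Of 8 fibroblast markers 3 were listed, with a sum between 32244 in nicotine 12 h and 59236 in PNU 3 h. It was almost wholly the collagen genes Col1a1 and Col3a1, with mean levels of 31739 and 10594. Pdgfrb had a mean of 10.1 over the libraries that list it. The fibroblast markers Col1a2, Pdgfra, Dcn, Lum and Thy1 were not listed. Of 6 endothelial markers 4 were listed, with a sum between 58.2 in DMSO 12 h and 109 in PNU 8 h. Fewer cells of a type and less RNA per cell cannot be told apart in these bulk libraries.

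Across the 10 libraries each member varied more than the median gene. The ratio of the highest to the lowest level was 2.71 for Nfkbiz, 2.55 for Traf1 and 2.32 for Relb. It was 1.96 for Birc3, 1.82 for Tnfaip3, 1.81 for Nfkb2 and 1.78 for Rela, and the smallest ratios were those of Nfkbia at 1.64 and Nfkb1 at 1.48. The median ratio of the members was 1.82, against 1.38 over all 11188 genes with a mean level of 50 or more. At least 2-fold ranges were found in 3 of 9 members, against 5.97% of all genes, and at least 1.5-fold ranges in 8 of 9 members, against 31.9% of all genes. Nicotine 1 h was the highest library for 6 of 9 members, namely all 4 subunit genes, Nfkbia and Traf1, while it was the highest for 17.1% of all genes. DMSO 12 h was the lowest library for 5 of 9 members, namely Nfkb1, Nfkb2, Relb, Nfkbia and Birc3, while it was the lowest for 7.28% of all genes. With nicotine 1 h and PNU 3 h left out, the ratio was 1.82 for Relb, 1.90 for Traf1, 1.31 for Nfkbia and 1.26 for Rela, and that of Nfkbiz stayed at 2.71. The ratios of all genes above are over 10 libraries, so they are no background for these values.

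**Figure D1:**
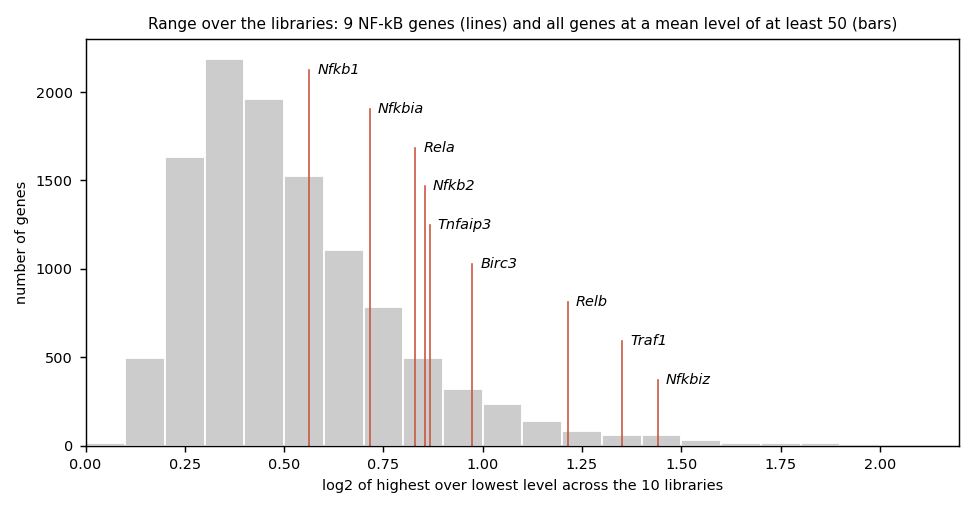
Range of the 9 NF-kB genes over the 10 libraries. The x axis is the log2 of the highest over the lowest level and the y axis the number of genes; grey bars are the 11188 genes with a mean level of 50 or more, and each red line is 1 of the 9 genes. Nfkb1, at a ratio of 1.48, lies nearest to the bulk of all genes (median 1.38), and Relb, Traf1 and Nfkbiz lie past 2-fold, where 5.97% of all genes lie.

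Among the subunit precursors, Nfkb1 had 1127, 1086, 1250, 1437 and 1139 normalised reads after 30 min, 1 h, 3 h, 8 h and 12 h of PNU. It had 1453 and 1261 after 1 h and 12 h of nicotine, 1055 and 1253 after 1 h and 12 h of MLA, and 984 in DMSO 12 h. Nicotine 1 h and PNU 8 h were high, with a gap in the intervals between them and the third highest library, and the intervals of the other 8 neighbouring pairs in the order overlapped. Nfkb2, whose product p100 is the precursor of the alternative branch of the pathway, had 1934, 1909, 1674, 2504 and 2302 normalised reads along the PNU times. It had 2867 and 2207 after 1 h and 12 h of nicotine, 1615 and 2479 after 1 h and 12 h of MLA, and 1586 in DMSO 12 h. The levels of Nfkb2 fell into steps: the intervals of 5 of 9 neighbouring pairs overlapped, and DMSO 12 h, MLA 1 h and PNU 3 h formed the lowest step. RefSeq lists a pseudogene of Nfkb2, and reads shared with it would make the Nfkb2 values uncertain.

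Rela encodes the main activating subunit of the classical branch. It had 2153, 2198, 3094, 2331 and 2224 normalised reads along the PNU times. Rela had 3282 and 1846 after 1 h and 12 h of nicotine, 1985 and 2331 after 1 h and 12 h of MLA, and 2038 in DMSO 12 h. PNU 3 h and nicotine 1 h stood above the other 8 libraries, and this was the only gap between the intervals of neighbours. Relb encodes the activating partner of the Nfkb2 product. It had 785, 729, 838, 1065 and 893 normalised reads along the PNU times. Relb had 1354 and 859 after 1 h and 12 h of nicotine, 627 and 987 after 1 h and 12 h of MLA, and 584 in DMSO 12 h. Its highest library, nicotine 1 h, was the only one set off from its neighbour, with an interval of 1286 to 1425 against 988 to 1147 in PNU 8 h, and DMSO 12 h and MLA 1 h were the lowest.

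Nfkbia encodes IκBα, the inhibitor that NF-kB itself induces. It had 1464, 1470, 1515, 1723 and 1737 normalised reads along the PNU times. Nfkbia had 2182 and 1696 after 1 h and 12 h of nicotine, 1413 and 1742 after 1 h and 12 h of MLA, and 1328 in DMSO 12 h. Nicotine 1 h stood highest, and PNU 8 h and the 3 compound libraries at 12 h lay close together, between 1696 and 1742. Nfkbiz encodes IκBζ, a nuclear inhibitor family member that acts on secondary response genes. It had 1014, 508, 739, 758 and 637 normalised reads along the PNU times. Nfkbiz had 665 and 759 after 1 h and 12 h of nicotine, 919 and 730 after 1 h and 12 h of MLA, and 1378 in DMSO 12 h. It was the only member whose highest library was DMSO 12 h (interval 1303 to 1456), PNU 30 min followed with 951 to 1080, and PNU 1 h was lowest with 466 to 552.

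Tnfaip3 encodes the ubiquitin-editing enzyme that switches off signalling from receptors to NF-kB. It had 354, 232, 264, 422 and 276 normalised reads along the PNU times. Tnfaip3 had 322 and 333 after 1 h and 12 h of nicotine, 317 and 410 after 1 h and 12 h of MLA, and 382 in DMSO 12 h. The intervals of all 9 neighbouring pairs overlapped, while libraries farther apart in the order, such as PNU 8 h (374 to 475) and PNU 1 h (204 to 262), had separate intervals. Birc3 encodes an inhibitor of apoptosis that is also a ubiquitin ligase at TNF receptors. It had 95.5, 81.5, 73.1, 94.2 and 91.6 normalised reads along the PNU times. Birc3 had 114 and 96.8 after 1 h and 12 h of nicotine, 92.2 and 131 after 1 h and 12 h of MLA, and 66.8 in DMSO 12 h. With 62 to 178 reads per library it was thinly covered, all 9 neighbouring pairs overlapped, and MLA 12 h (113 to 152) and DMSO 12 h (51.2 to 85.6) were the ends of the order.

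Traf1 encodes an adaptor of the TNF receptor family that is itself an NF-kB target. It had 79.8, 116, 108, 149 and 140 normalised reads along the PNU times. Traf1 had 203 and 114 after 1 h and 12 h of nicotine, 79.7 and 151 after 1 h and 12 h of MLA, and 87.3 in DMSO 12 h. Nicotine 1 h, with an interval of 178 to 232, was set off from the next library, MLA 12 h, at 131 to 173, while MLA 1 h, PNU 30 min and DMSO 12 h were low.

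**Figure D2:**
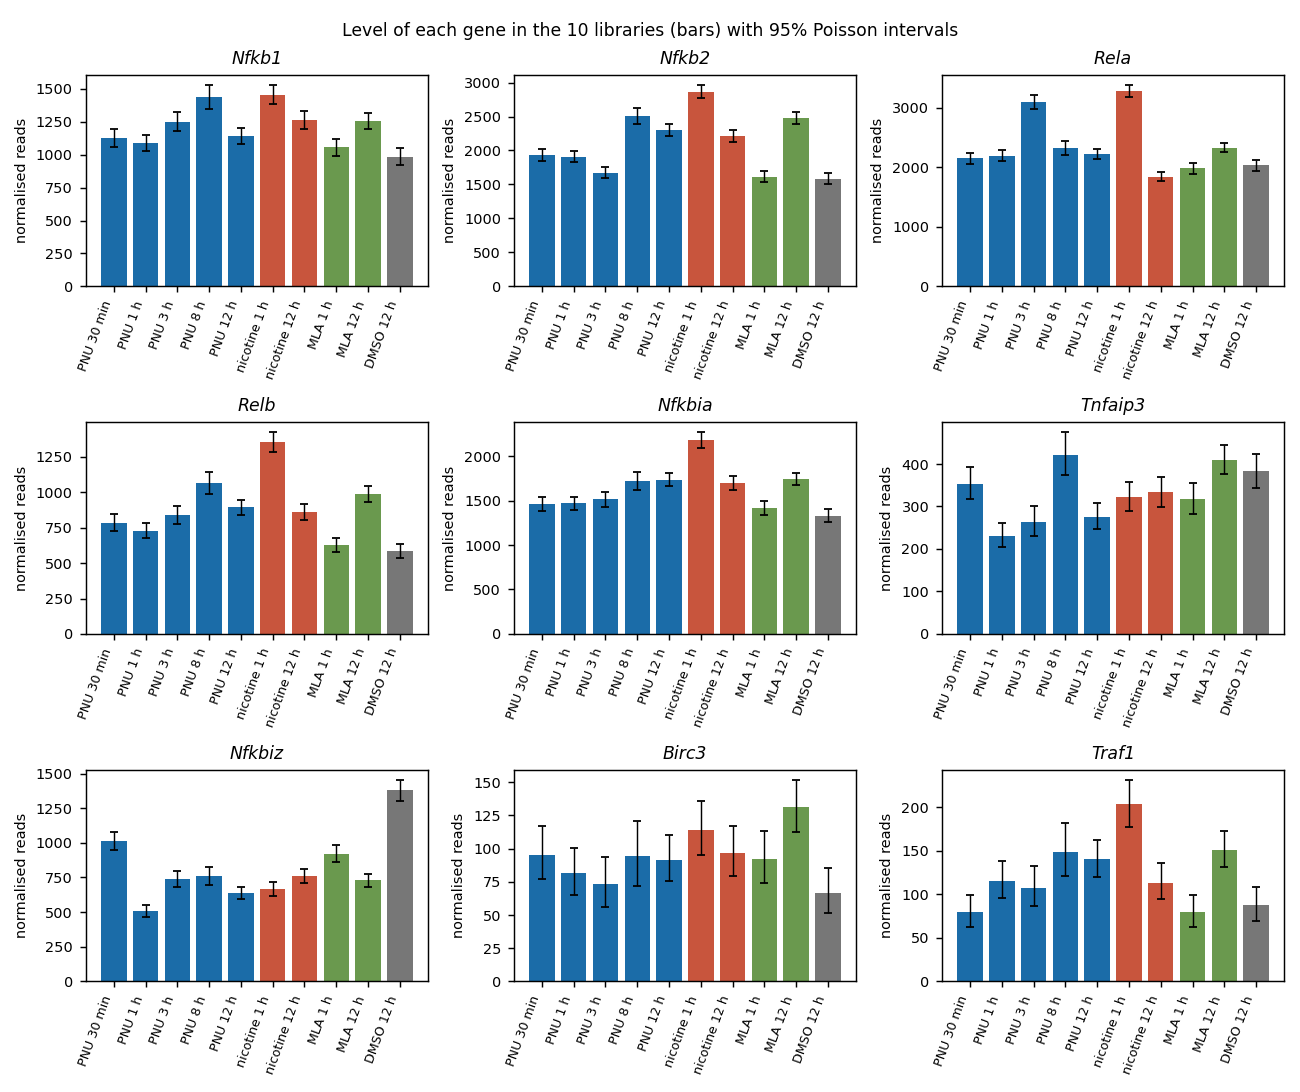
Level of each of the 9 genes in the 10 libraries. Each bar is 1 library, its height is the level in normalised reads on an axis that starts at 0, and error bars are 95% Poisson intervals of the count; blue bars are PNU, red nicotine, green MLA and grey DMSO. Nicotine 1 h is the highest bar for Nfkb1, Nfkb2, Rela, Relb, Nfkbia and Traf1, and DMSO 12 h is the highest for Nfkbiz.

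The design first sets cells given the agonist for 12 h against cells given vehicle for as long. Relb and Traf1 were more than 1.5-fold higher in PNU 12 h than in DMSO 12 h, by 0.61 (95% counting interval 0.46 to 0.76) and 0.68 (0.30 to 1.08) on the log2 scale, and Nfkbiz was 2.16-fold lower, at a log2 fold of -1.11 (-1.24 to -0.98). Nfkbiz was the only member past 2-fold, where 0.555% of 11167 genes lay, and with Relb and Traf1 3 members were past 1.5-fold, where 2.78% lay. The other members had log2 folds of 0.54 (Nfkb2), 0.46 (Birc3), 0.39 (Nfkbia), 0.21 (Nfkb1), 0.13 (Rela) and -0.47 (Tnfaip3). The interval of the fold held 0 for Birc3 only. In all, 7 of 9 members lay above 0 with a median log2 fold of 0.39, against 0.01 over all genes.

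The 12 h libraries of the other compounds were also set against DMSO 12 h, and since all 3 comparisons share that library, their values are given side by side. In nicotine 12 h against DMSO 12 h Nfkbiz was lower by a log2 fold of -0.86 (-0.99 to -0.73), Relb was at 0.56, Birc3 at 0.54 and Nfkb2 at 0.48. None of the 9 members passed 2-fold, where 0.457% of genes lay, and Nfkbiz alone passed 1.5-fold, where 2.42% lay. In MLA 12 h, the negative control, against DMSO 12 h, Birc3 was at 0.97 (0.55 to 1.41), Traf1 at 0.79, Relb at 0.76, Nfkb2 at 0.64 and Nfkbiz at -0.92 (-1.04 to -0.80). These 5 members were past 1.5-fold, against 2.15% of genes, and 0 were past 2-fold, against 0.366%.

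DMSO 12 h was the only vehicle library, and other values moved with it. Of 22 immediate early genes, which serum and handling induce quickly, 8 were at least 2-fold lower after 12 h of PNU, 12 after 12 h of nicotine and 8 after 12 h of MLA than in DMSO 12 h. Egr1, for instance, had 1596, 1432 and 1751 normalised reads in these 3 libraries, against 5448 in DMSO 12 h. Their part in the values of Nfkbiz was not tested. Set against PNU 30 min instead of DMSO 12 h, a choice made after seeing the data, 0 members passed 2-fold in any of the 3 comparisons, where 0.394% of genes did after PNU, 0.233% after nicotine and 0.197% after MLA, so a count of 0 says little about the members. Nfkbiz was then at -0.67 after 12 h of PNU, -0.42 after 12 h of nicotine and -0.48 after 12 h of MLA. Against PNU 30 min Traf1 was at 0.81, 0.51 and 0.92 in the same 3 libraries, and Relb was at 0.19, 0.13 and 0.33.

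At 1 h the agonist and the negative control were set side by side. In PNU 1 h Nfkbiz had 508 normalised reads, against 919 in MLA 1 h, a log2 fold of -0.86 (-1.01 to -0.70). It was the only member past 1.5-fold, where 1.22% of 11156 genes lay, and 0 members were past 2-fold, where 0.0986% lay. Traf1 was at 0.54 (0.12 to 0.97) and Tnfaip3 at -0.45 (-0.70 to -0.20), and the intervals of Nfkb1, Nfkbia and Birc3 held 0. At 12 h all 9 members lay below 0 in PNU against MLA, with a median of -0.14, against 0.002 over all genes. The intervals of Rela, Nfkbia and Traf1 held 0 there. The lowest were Tnfaip3 at -0.57 and Birc3 at -0.52, 0 members passed 2-fold (0.116% of genes) and 0 passed 1.5-fold (1.98%).

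Nicotine at 1 h differed most from the negative control. In nicotine 1 h Traf1 was 2.55-fold higher than in MLA 1 h, at a log2 fold of 1.35 (0.97 to 1.75), and Relb 2.16-fold higher, at 1.11 (0.97 to 1.25). Nfkb2 was at 0.83, Rela at 0.73 and Nfkbia at 0.63, so that 5 members were past 1.5-fold and 2 past 2-fold. The background was also larger than in the pairs above, with 13.2% of 11183 genes past 1.5-fold and 2.45% past 2-fold. Most of these genes were lower in nicotine 1 h: 4.26% of genes were at least 1.5-fold higher and 0.358% at least 2-fold higher. Tnfaip3 was at 0.03 (-0.20 to 0.25) and Nfkbiz at -0.47 (-0.61 to -0.32). Genes of other lists moved in the same pair: 5 of 21 immediate early genes were at least 1.5-fold higher, and the fibroblast marker Col1a1 had 45305 normalised reads in nicotine 1 h, against 24750 in MLA 1 h. Their part in the values of the members was not tested. After 12 h the picture did not hold: in nicotine 12 h against MLA 12 h the log2 folds were -0.41 for Traf1, -0.20 for Relb and -0.34 for Rela. There 7 of 9 members lay below 0, with 0 members past 2-fold (0.0% of genes) and 0 past 1.5-fold (0.527%).

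Nicotine and PNU were given at different doses, so their values are set side by side without a claim on potency. All 9 members were lower in PNU 1 h than in nicotine 1 h, with a median log2 fold of -0.57. The largest were Relb at -0.89 (-1.02 to -0.77), Traf1 at -0.81 (-1.14 to -0.49) and Nfkb2 at -0.59. These 3 members passed 1.5-fold, as did 8.69% of genes (5.57% higher and 3.11% lower), and 0 passed 2-fold, against 1.28% of genes. In the 12 h libraries 5 of 9 members lay above 0 in PNU against nicotine, with a median of 0.04 and a range from -0.27 (Tnfaip3) to 0.30 (Traf1). There 0 members passed 2-fold (0.429% of genes) and 0 passed 1.5-fold (4.2%).

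**Figure D3:**
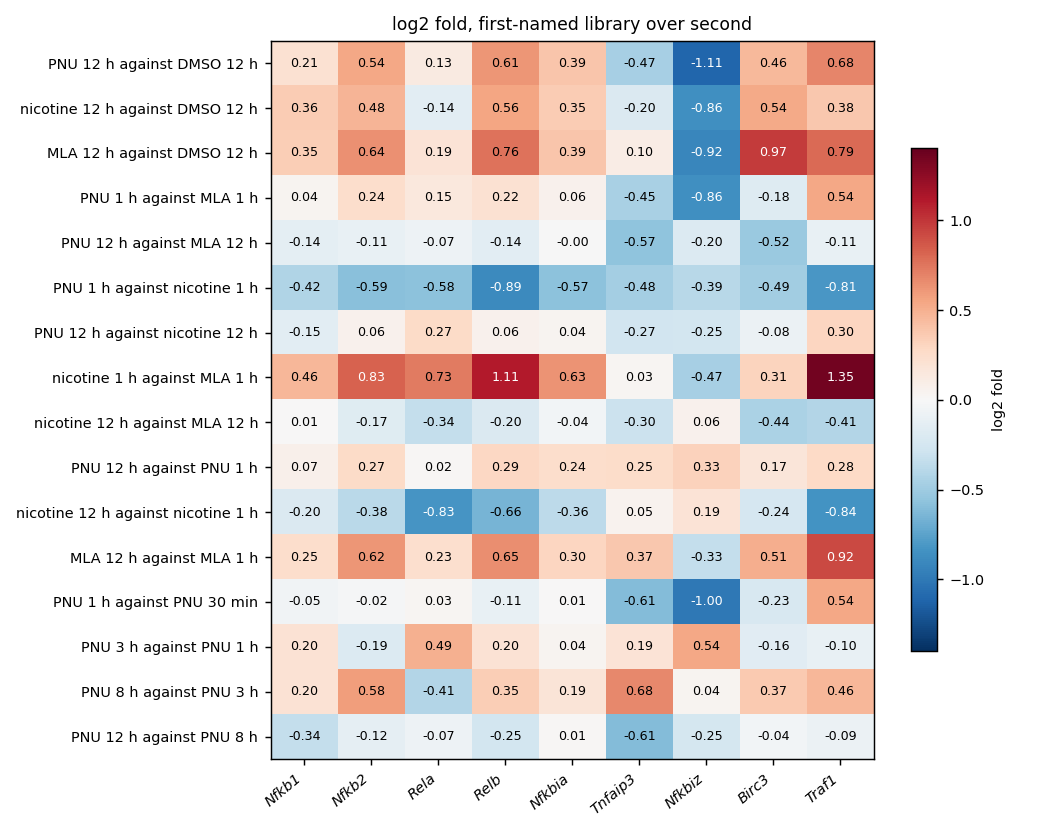
log2 folds of the 9 genes in the 16 pairs of libraries. Each row is 1 pair, with the first-named library over the second, each column is 1 gene, and red stands for higher and blue for lower in the first-named library. Nfkbiz is blue in the top 3 rows, which share DMSO 12 h (-1.11, -0.86 and -0.92), and the nicotine 1 h row against MLA 1 h holds the largest positive values, 1.35 for Traf1 and 1.11 for Relb.

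Within a compound, the members went different ways between 12 h and 1 h. In PNU 12 h against PNU 1 h all 9 were above 0, from 0.02 (Rela) to 0.33 (Nfkbiz), but the intervals of Nfkb1, Rela, Birc3 and Traf1 held 0, and with scaling by summed reads Rela was just below 0. Here 0 members were past 2-fold (0.224% of genes) and 0 were past 1.5-fold (1.89%). In MLA 12 h against MLA 1 h 8 of 9 were above 0, led by Traf1 at 0.92 (0.54 to 1.32), Relb at 0.65 (0.51 to 0.80) and Nfkb2 at 0.62 (0.53 to 0.71). These 3 were past 1.5-fold, where 1.35% of genes lay, and 0 were past 2-fold, where 0.152% lay. In nicotine 12 h against nicotine 1 h 7 of 9 were below 0, led by Traf1 at -0.84 (-1.17 to -0.52), Rela at -0.83 (-0.91 to -0.75) and Relb at -0.66 (-0.78 to -0.54). These 3 were past 1.5-fold, where 14.7% of genes lay (9.46% higher and 5.23% lower), and 0 were past 2-fold, where 2.62% lay.

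**Figure D4:**
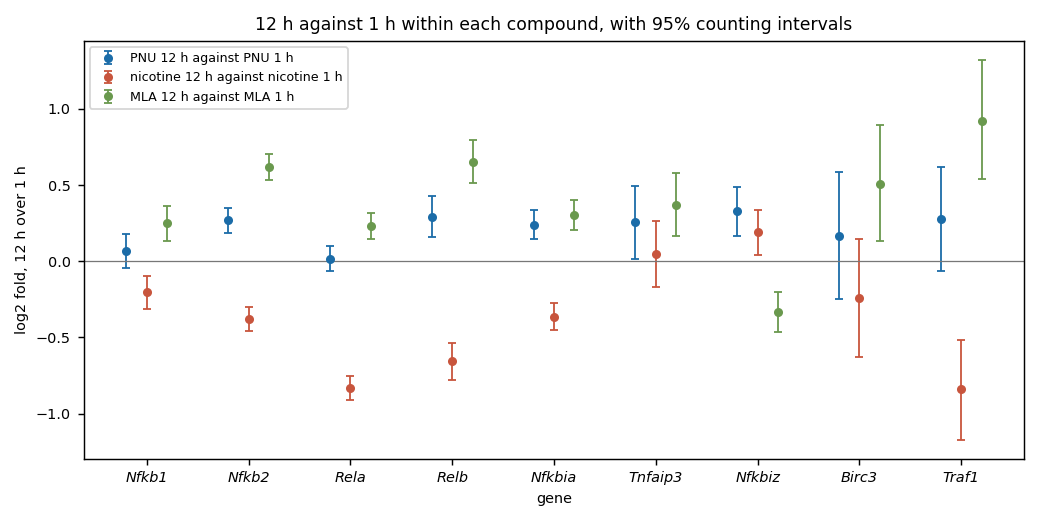
log2 fold between 12 h and 1 h for each of the 9 genes within each compound. Points are 12 h over 1 h for PNU (blue), nicotine (red) and MLA (green), and bars are 95% counting intervals. For Traf1 and Relb the nicotine points (-0.84 and -0.66) and the MLA points (0.92 and 0.65) lie on opposite sides of 0, with PNU between them.

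Taking the 3 compounds as blocks allows a test of time, in which the spread is that between compounds. In limma on log2(level + 1), 0 of 13362 genes passed an adjusted p under 0.05 (0.0%), and 105 had an unadjusted p under 0.05. The 12 h minus 1 h differences of the members were small beside their errors, from -0.19 (SE 0.21) for Rela to 0.22 (SE 0.14) for Tnfaip3, with 8 of 9 above 0, and each had an adjusted p of 0.999974. Relb, at 0.10, had a 95% interval from -0.48 to 0.68, so a difference of either sign was not detectable beside this spread. The result rests on nicotine 1 h. Without that library limma called 455 of 13375 genes (3.4%) on 1 residual degree of freedom. Among them were Nfkb2 at 0.44, Relb at 0.47, Nfkbia at 0.27 and Traf1 at 0.59, all higher at 12 h, while the other 5 members did not pass. Without nicotine 1 h 14.8% of genes had an unadjusted p under 0.05, against 0.786% in the main fit. With 1 residual degree of freedom limma takes the spread mostly from other genes, so these calls are no replicate check. In that fit only PNU and MLA give a difference between times, so it describes those 4 libraries.

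The same 6 libraries allow a test of both agonists against MLA, with time as a covariate. PNU and nicotine count there as 1 group. The spread is therefore that between these compounds, and between compounds in their time difference, not that of replicates. In limma 0 of 13362 genes passed (0.0%), with 136 at an unadjusted p under 0.05, and all 9 members had an adjusted p of 0.996471. Nfkbiz averaged 642 normalised reads over the agonist libraries and 824 over the MLA libraries, a log2 difference of -0.37 (SE 0.18). Tnfaip3 averaged 291 over the agonist libraries and 363 over the MLA libraries, a log2 difference of -0.32 (SE 0.17). Without both nicotine libraries limma called 526 of 13393 genes (3.93%) on 1 residual degree of freedom, among them Nfkbiz at -0.53 and Tnfaip3 at -0.51. There 15.9% of genes had an unadjusted p under 0.05, against 1.02% in the main fit. That fit describes the PNU and MLA libraries only, and its calls are no replicate check. Without nicotine 1 h alone limma called 0 genes, with 207 at an unadjusted p under 0.05.

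Along the PNU times the members did not move as 1 group. In PNU 1 h against PNU 30 min Nfkbiz was at -0.998 (-1.15 to -0.85), just short of the 2-fold limit, and Tnfaip3 at -0.61 (-0.85 to -0.37). These 2 were past 1.5-fold, where 0.582% of 11165 genes lay, and 0 were past 2-fold, where 0.0717% lay. The 4 subunit genes and Nfkbia differed by at most 0.11 in size between these libraries, and their intervals held 0. In PNU 3 h against PNU 1 h Nfkbiz was at 0.54 and Rela at 0.49, with 0 members past 1.5-fold (4.79% of genes) or 2-fold (0.447%). In PNU 8 h against PNU 3 h Tnfaip3 was at 0.68 (0.42 to 0.93), past 1.5-fold as 5.02% of genes were, Nfkb2 was at 0.58 and Rela at -0.41, and 0 members passed 2-fold (0.642%). In PNU 12 h against PNU 8 h Tnfaip3 was at -0.61 (-0.84 to -0.38), the only member past 1.5-fold (3.79% of genes), 8 of 9 members were below 0 and 0 passed 2-fold (0.277%).

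Nfkb1, Nfkb2, Relb, Nfkbia and Traf1 had similar orders of levels over the libraries. Over the 10 libraries Relb had a Pearson r of 0.95 with Nfkbia, 0.93 with Nfkb1, 0.92 with Nfkb2 and 0.90 with Traf1, on log2 levels. These points share their libraries and scaling, and with the libraries farthest from the median of the first-named gene left out (8 libraries) the values for Nfkb1 and Nfkb2 were 0.87 and 0.86. Other pairs of these genes dropped further on the same measure, to 0.63 for Nfkb2 with Nfkb1, 0.64 for Traf1 with Nfkb1, 0.68 for Nfkbia with Nfkb1 and 0.78 for Traf1 with Relb. Rela had an r of 0.64 with Relb, which was 0.29 without the libraries farthest from the Relb median. Nfkbiz had an r below 0 with each member other than Tnfaip3, between -0.33 and -0.62, and of 0.58 with Tnfaip3. Its r with Birc3 was 0.19 without the libraries farthest from the Birc3 median, against -0.34 over all 10. Tnfaip3 had an r between -0.20 and 0.37 with the 7 other members.

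The genes most like the 3 most variable members were then named, among genes with a mean level of 50 or more. For Relb they were Cxcl16, a transmembrane chemokine (r = 0.98), Nfkbie, the gene of the inhibitor IκBε (0.98), Rhbdf2 (0.96), Hr (0.96) and Slc1a5, a glutamine transporter (0.95). For Traf1 they were Esrra, an orphan nuclear receptor (0.95), Rpusd3 (0.94), Fance (0.93), Nfkbie (0.93) and Rhbdf2 (0.92). All of these Relb and Traf1 partners were highest in nicotine 1 h. For Nfkbiz they were Klf6 (r = 0.92) and Fos (0.91), immediate early transcription factors, Cxcl1, a neutrophil chemokine (0.90), Edn1, the endothelin gene (0.89), and Junb (0.88), each highest in DMSO 12 h. Without the libraries farthest from the Nfkbiz median, DMSO 12 h and PNU 1 h, r over 8 libraries was 0.70 for Klf6, 0.72 for Fos, 0.66 for Cxcl1, 0.88 for Edn1 and 0.84 for Junb.

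**Figure D5:**
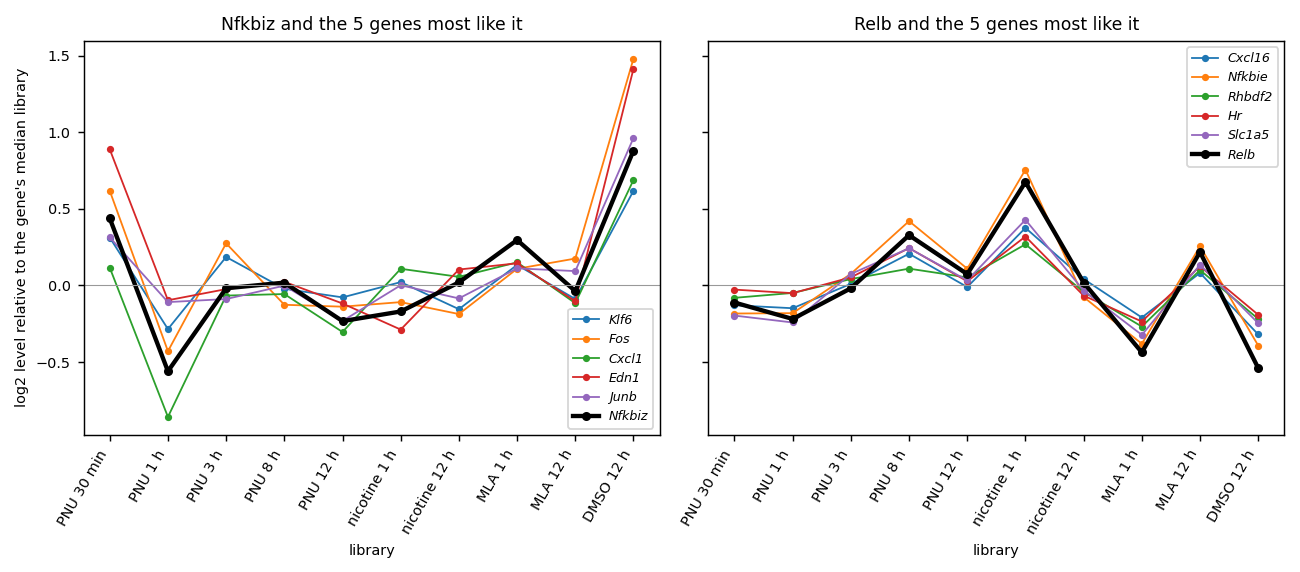
Nfkbiz (left) and Relb (right), in black, with the 5 genes of the highest Pearson r to each over the 10 libraries, in colour. The x axis is the library and the y axis the log2 level relative to the gene's median library; points are single libraries joined by lines to guide the eye. The Nfkbiz group peaks in DMSO 12 h, and the Relb group peaks in nicotine 1 h.

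The rest of the pathway varied less than the members. Of 54 other pathway genes 51 were listed and 45 reached a mean level of 50. The median ratio of highest to lowest level of these 45 was 1.35, against 1.38 over all genes at that level. At least 2-fold ranges were found in 4 of the 45, against 5.97% of all genes. They were Nfkbie, Ikbkg, a scaffold of the IκB kinase complex, Tab3, an adaptor of its upstream kinase, and Itch. Itch is a ubiquitin ligase that works with the Tnfaip3 product. Nfkbie had 381, 382, 456, 579 and 467 normalised reads along the PNU times. It had 731 and 411 after 1 h and 12 h of nicotine, 332 and 517 after 1 h and 12 h of MLA, and 330 in DMSO 12 h, the same ends of the order as Relb. Ikbkg, Tab3 and Itch were lowest in nicotine 1 h, at 146, 112 and 693, where the subunit genes were highest, and this library was also the lowest for 23.4% of all genes. In nicotine 1 h against MLA 1 h 1 of 45 pathway genes was at least 2-fold higher (Nfkbie), against 0.358% of all genes. There 3 of 45 were at least 2-fold lower (Tab3, Itch and Ikbkg), against 2.09% of all genes. After 12 h of PNU, nicotine or MLA against DMSO 12 h 0 of 45 were past 2-fold. Of all genes 0.555%, 0.457% and 0.366% were, so a count of 0 says little about the pathway. The median log2 folds of the pathway genes were 0.01, 0.05 and 0.08.

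Of 40 target genes of NF-kB 30 were listed and 23 reached a mean level of 50. Their median ratio was 1.51, against 1.38 over all genes, and 7 of the 23 ranged at least 2-fold, against 5.97% of all genes. Ccl2, the monocyte chemokine, had 1348, 1032, 933, 2157 and 1364 normalised reads along the PNU times. It had 2021 and 1792 after 1 h and 12 h of nicotine, 1251 and 1861 after 1 h and 12 h of MLA, and 1069 in DMSO 12 h, so that PNU 8 h and nicotine 1 h were high, as for Nfkb1. Cxcl1 had 1094, 557, 964, 971 and 818 normalised reads along the PNU times. It had 1088 and 1049 after 1 h and 12 h of nicotine, 1121 and 932 after 1 h and 12 h of MLA, and 1627 in DMSO 12 h, and so shared the highest and the lowest library with Nfkbiz. In PNU 8 h against PNU 3 h Ccl2, Ccl7 and Xiap were at least 2-fold higher, as were 0.446% of all genes. In PNU 1 h against MLA 1 h Cxcl1 was at least 2-fold lower, as were 0.0717%. In nicotine 12 h against DMSO 12 h Ccl7 was at least 2-fold higher (0.126% of genes). Xiap was at least 2-fold lower in nicotine 1 h than in MLA 1 h (2.09% of genes). It was at least 2-fold higher in PNU 1 h (0.93%) and in nicotine 12 h (2.2%) than in nicotine 1 h. Xiap, an inhibitor of apoptosis, was lowest in nicotine 1 h at 168 and highest in nicotine 12 h at 589. In the time and the compound test 0 pathway genes of 51 and 0 target genes of 29 passed, where 0 of all 13362 genes did.

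The authors' deposited tables covered 12 of the 16 pairs and give a p-value for each member in each. Of these 108 member values 6 in the authors' deposited tables had a p-value under 0.05, and the lowest adjusted p was 0.999724. They were those of Nfkb2 and Relb in PNU 12 h and nicotine 12 h against DMSO 12 h, of Relb in PNU 1 h against nicotine 1 h and of Nfkb2 in PNU 8 h against PNU 3 h. The lowest p of a member in the authors' deposited tables was 0.0295, for Nfkb2 in PNU 12 h against DMSO 12 h. These p-values also set 1 library against 1, with no replicate from which to estimate the spread. Several of the pairs share a library, and the share of all genes with a p-value under 0.05 was not counted. The count of 6 among 108 is therefore not read as a result about the members. Nfkbiz, which had the largest fold of a member in PNU 12 h against DMSO 12 h, was not among the 6 values.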

How the data were processed

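The data are 10 polyA-selected libraries of RPE-J cells, grouped as their labels state. Trimmomatic 0.36, STAR 2.5.2b, featureCounts of Subread 1.5.2, and DESeq2 are named in the submitters' processing notes. Genome build, gene annotation and whether strand was used: not given in the sources used here. There are 39 deposited tables of 13015 to 13781 genes, which the authors made for pairs of libraries. Per the file headers, the deposited columns are a level for either library, which is a signal never below 0, a log2 fold change, a p-value and an adjusted p-value. Genes with a mean level under 8.32 to 10.5 are not in the tables and were not analysed here.

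The step between values gave read numbers within 0.01 of a whole number for 100% of values, which served for counting intervals and for scaling all libraries by the median of ratios (scale factors 0.658 to 1.36). Folds of a pair have exact binomial (Clopper-Pearson) 95% intervals, and reads are not independent molecules, so intervals cover counting error only. Counts used at least 2-fold where the mean level of the pair was 50 or more, with 1.5-fold beside it. The time and compound tests used limma 3.58.1 (R 4.3.3) with a trended spread on log2(level + 1), for genes with a mean level of 10 or more over 6 libraries, with Benjamini-Hochberg adjustment over all genes. The fits were tested on simulated data in which no library stood apart, so that test does not cover the influence of nicotine 1 h. Other steps used Python 3.11.15, numpy 2.4.6, pandas 2.3.3 and scipy 1.17.1. Promoters came from RefSeq by symbol.

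The members, the gene lists and the tests were chosen with earlier results of these data known. Named beside the members are list genes with the largest ranges or past 2-fold, and the 5 genes with the highest r to each of the 3 most variable members. Where nothing says that cultures were separate, p-values measure only the spread between these libraries.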

Additional observations from a re-analysis of the deposited data

Results flagged for a closer look

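For 2 of the 9 genes, 12 h and 1 h differed by at least 1.5-fold in opposite directions in nicotine and MLA, as they did for 0.325% of 11079 genes. Relb was lower in nicotine 12 h than in nicotine 1 h, at a log2 fold of -0.66, and higher in MLA 12 h than in MLA 1 h, at 0.65. Traf1 was at -0.84 in nicotine 12 h against nicotine 1 h and at 0.92 in MLA 12 h against MLA 1 h. With the rule that both counting intervals exclude 0, 7 of the 9 genes had opposite directions, against 27.3% of the 11079 genes. The difference between compounds was not tested, since each value rests on 2 libraries. In the PNU libraries the same folds were 0.29 for Relb and 0.28 for Traf1. The nicotine 1 h library enters both negative values and was also the library with the most genes past 2-fold, and its part in them was not tested.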

How the results depend on the processing

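The 252 log2 folds of members recomputed with scaling by summed reads or from the authors' table of the pair kept to their counting intervals, with a largest shift of 0.0573, although 4 folds near 0 changed sign with summed reads: Nfkb1 in nicotine 12 h against MLA 12 h, Rela in PNU 12 h against 1 h, and Nfkbia in PNU 1 h against 30 min and 12 h against 8 h. At 1.5-fold in place of 2-fold the members counted against DMSO 12 h were 3 after 12 h of PNU, 1 after 12 h of nicotine and 5 after 12 h of MLA. They were 1 in PNU 1 h against MLA 1 h, 3 in PNU 1 h against nicotine 1 h and 5 in nicotine 1 h against MLA 1 h. Within compounds they were 3 in nicotine and 3 in MLA 12 h against 1 h, and for PNU 2 in 1 h against 30 min, 1 in 8 h against 3 h and 1 in 12 h against 8 h. With scaling by summed reads 1 member passed 2-fold in MLA 12 h against DMSO 12 h and 1 in PNU 1 h against PNU 30 min, where 0 had passed. Against PNU 30 min instead of DMSO 12 h, 0 members passed after 12 h of PNU, where 0.394% of all genes did. Leaving out libraries or compounds in turn, limma called between 0 and 455 genes for time and between 0 and 526 for compounds, with calls only where nicotine or nicotine 1 h was left out and 1 residual degree of freedom remained. Pseudocount 10, no filter, a mean level of at least 50, summed reads and no block each gave 0 calls. TMM scaling, edgeR and DESeq2 were planned and not run, because a separate check of the deposited levels did not accept them as whole reads. The counting intervals rest on the read numbers recovered from these levels, so they hold only if that recovery is right. The time test pairs 12 h with 1 h within each compound, and pairing by replicate number was not made, since the labels give no such numbers. Depth limits Birc3 and Traf1 most, at 62 to 224 reads per library.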
